A study of Mus musculus with 48 samples.

Results

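The 93 genes described here encode subunits of the oxidative phosphorylation machinery, and they were read in hypothalamus, pituitary and mammary gland of lactating mice kept in heat and of control mice. They are the protein-coding genes whose symbols follow the Nduf, Sdh, Uqcr, Cox4 to Cox8 and Atp5 subunit patterns, 80 in the nucleus, together with the 13 protein-coding genes of the mitochondrial genome, out of 58913 genes in the files. The nuclear genes comprise 35 of complex I, 4 of complex II, 8 of complex III, 16 of complex IV (with Ndufa4) and 17 of complex V. A gene of fitting name that is annotated as a pseudogene, Cox6c2, was not counted, and symbols whose form falls outside the patterns, such as Cox4i1, were read as a list of their own.

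The dams were ICR mice aged 10 weeks on lactation day 13. Heat-stressed dams were kept at 36 °C and control dams at 25 °C, both at 55% relative humidity. Tissues, among them the left inguinal mammary gland, were collected straight after treatment. Each tissue had 8 heat and 8 control libraries of bulk RNA, 48 in all, and the labels name no genetic alteration and give no length of exposure. The labels do not say which dam gave which library, so p-values measure the spread between these libraries. Levels are FPKM, fragments per kilobase of transcript divided by a value set per library, so that genes of different length can be compared. That value was not in proportion to the library's fragments. A count of 3 fragments in a gene of 1 kilobase equals 0.563 FPKM in control mammary library 1, with 14907800 fragments on annotated genes. In control hypothalamus library 1, with 20445600 such fragments, it equals 0.115 FPKM. The deposited FPKM had the same median ratio, 1.01231, in all 48 libraries, so they were already scaled alike across tissues. Changes are differences of log2(FPKM + 1), heat minus control, which understate the change of low genes. In bulk tissue, fewer cells of a type and less RNA per cell cannot be told apart.

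Oxidative phosphorylation is the last stage of fuel burning. Complexes I and II take electrons from NADH and succinate, complex III passes them to cytochrome c and complex IV to oxygen, and the proton gradient built on the way drives ATP synthase, complex V. The machinery is made from both genomes of the cell: the mitochondrial genome gives core membrane subunits of complexes I, III, IV and V, in long shared transcripts that also hold its ribosomal RNAs, while the nuclear genome gives all other subunits and the whole of complex II. Secretory epithelium in lactation and neurons both rely heavily on it.

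The steps of the FPKM values put depth between 16272700 and 22166100 fragments in hypothalamus, between 10893100 and 17246500 in pituitary and between 11586400 and 17809300 in mammary gland. Milk genes summed to 107238 to 164082 FPKM in heat and 103691 to 198573 FPKM in control mammary glands, and 4 neuron markers to 211 to 254 FPKM in heat and 199.6 to 263 FPKM in control hypothalami. In pituitary Prl, the prolactin gene, was low for that gland, at 1.02 to 17.6 FPKM in heat and 9.13 to 43.9 FPKM in control, and so was Gh, the growth hormone gene, at 3.103 to 31.8 FPKM in heat and 2.24 to 22.4 FPKM in control. Markers of the intermediate and posterior lobes, led by Pomc, summed to 6635 to 100304 FPKM in heat and 2176 to 42904 FPKM in control pituitaries, and the 6 anterior lobe markers to 294 to 574 FPKM in heat and 409 to 789 FPKM in control. In mammary gland 12 lymphocyte markers summed to 4.46 to 168 FPKM in heat (median 49.6) and 4.25 to 126 FPKM in control (median 5.07), and the 5 highest libraries, heat 4, 5, 6 and 8 and control 5, lay far above the rest. Libraries 1 to 3 differed as a set from libraries 4 to 8, for which the labels give no reason, and values within each set are given where they bear on a result.

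No oxidative phosphorylation gene passed the test for a heat change in any of the 3 tissues. Of the 93 members, 89 were tested in hypothalamus, 87 in pituitary and 88 in mammary gland, because the two-sided limma test was run on genes with a mean of at least 1 FPKM. Cox7b2, Cox8c and Ndufs3 were below that level in each tissue, Cox8b was tested in mammary gland alone, Cox6a2 in hypothalamus alone, Uqcrc1 in hypothalamus and mammary gland, and Cox6b2 in hypothalamus and pituitary. At a Benjamini-Hochberg adjusted p under 0.05 over all genes tested, limma called 0 members in each tissue, against 0.681% of all genes in hypothalamus, 3.79% in pituitary and 5.31% in mammary gland. An exact Wilcoxon test per gene also called 0 members in each. At an unadjusted p under 0.05 there were 0 members in hypothalamus, 6 (6.9%) in pituitary and 3 (3.41%) in mammary gland, beside 1222 (8.75%), 2339 (16.6%) and 2712 (21.5%) of all genes tested.

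The fitted changes of the members ran from -0.23 to 0.31 in hypothalamus, from -0.56 to 0.40 in pituitary and from -0.40 to 0.23 in mammary gland. The 95% interval lay wholly within 0.5 of zero for 70 of 89 members in hypothalamus, 74 of 87 in pituitary and 61 of 88 in mammary gland, and within 1 of zero for 88, 86 and 86 of them. The share within 0.5 was 78.7% of members in hypothalamus, 85.1% in pituitary and 69.3% in mammary gland, beside 87.5%, 74.8% and 59.7% of all genes. For the 13 mitochondrially encoded members the interval lay within 0.5 for 3 in hypothalamus, 5 in pituitary and 2 in mammary gland. In this fit, which has no term for library sets, it thus did not exclude a change of that size for most of them. For none of the 93 members did all heat libraries of a tissue lie above or below all of its control libraries, whereas 0.437%, 1.164% and 0.969% of genes with a mean of at least 1 FPKM were so separated in hypothalamus, pituitary and mammary gland.

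**Figure D1:**
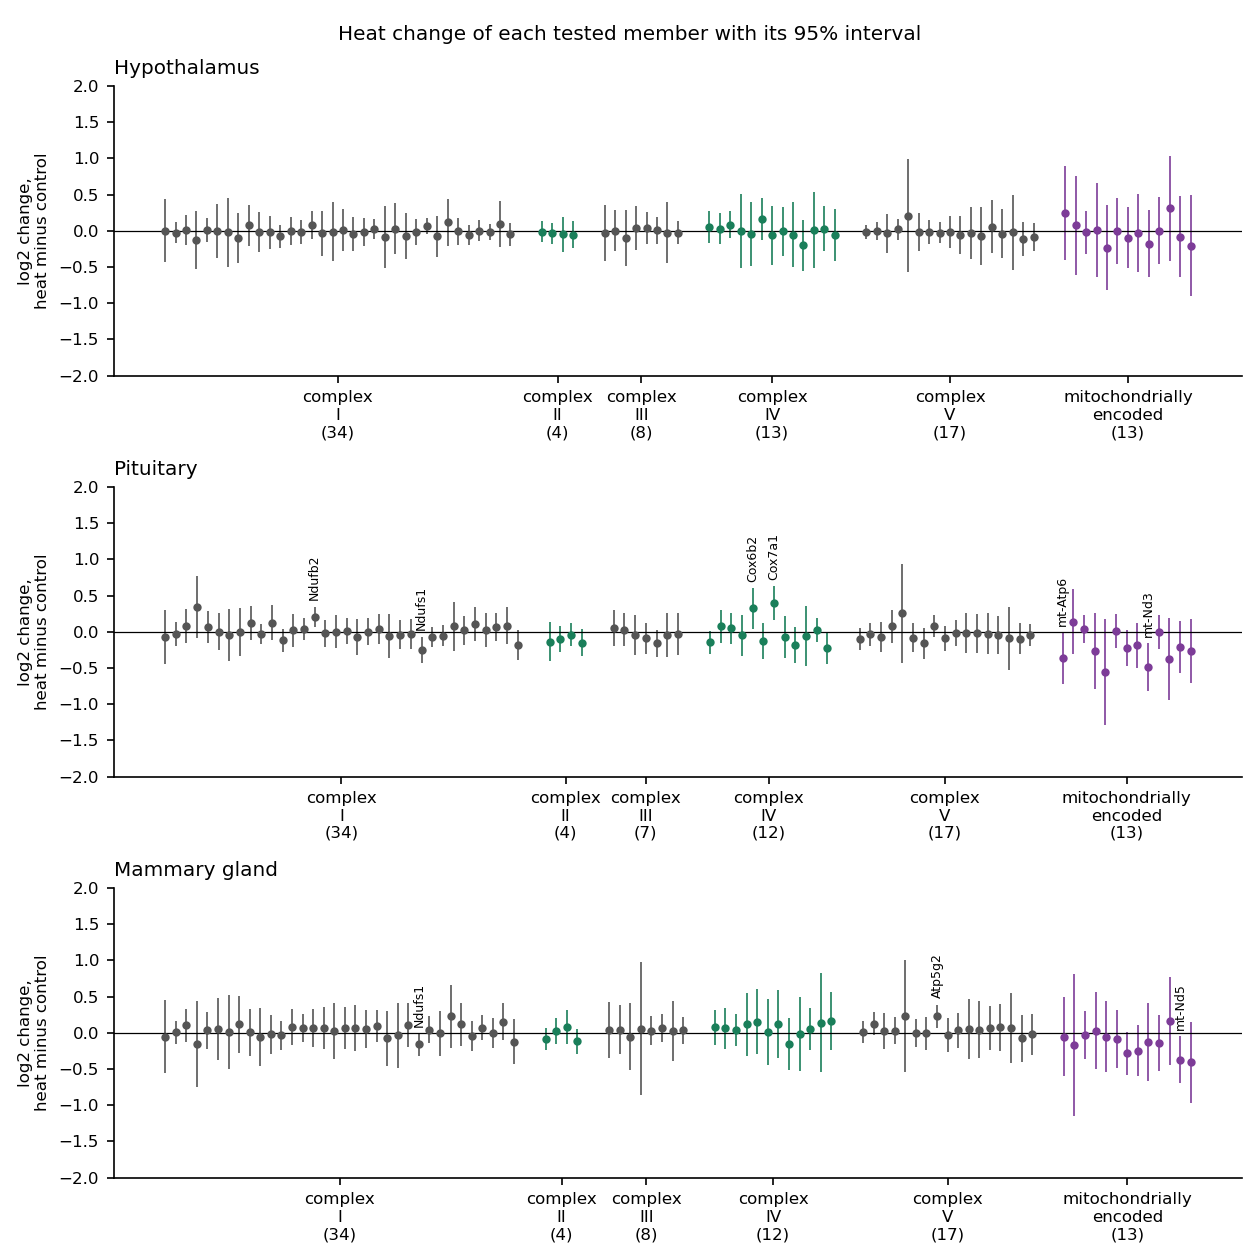
Heat change of each tested member, as log2(FPKM + 1) in heat minus control on the vertical axis, by complex and genome along the horizontal axis, in hypothalamus, pituitary and mammary gland. Points are limma estimates from 8 heat against 8 control libraries, bars are 95% intervals, and names mark members with an unadjusted p under 0.05, of which there were 0, 6 and 3; none passed after adjustment.

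Nuclear and mitochondrially encoded members were then set side by side. The median change of the nuclear members was -0.02 in hypothalamus, -0.03 in pituitary and 0.04 in mammary gland, and each of these signs turned under some of the alternatives tried, among them other scalings. The median of the 13 mitochondrially encoded members was -0.02 in hypothalamus, where the sign also turned, -0.22 in pituitary and -0.13 in mammary gland, where it was negative under every alternative run. The medians of all genes tested were 0.0028, 0.0045 and -0.0096, but under scaling to the library sum that of pituitary was -0.14, beside -0.20 for nuclear and -0.40 for mitochondrially encoded members. Of the 13, 10 had a negative estimate in pituitary and 11 in mammary gland, but they are cut from shared precursors and are not independent of one another.

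Summed over its 13 genes, the mitochondrial genome gave 8324 ± 879.9 FPKM in heat and 8898 ± 1375 FPKM in control pituitaries, 18892 ± 5516 FPKM in heat and 20907 ± 4048 FPKM in control mammary glands, and 17029 ± 4861 FPKM in heat and 17977 ± 5811 FPKM in control hypothalami (SD, n = 8 each). The 80 nuclear genes summed to 3484 ± 341 FPKM in heat and 3543 ± 373 FPKM in control pituitaries, 8543 ± 1809 FPKM in heat and 8444 ± 1406 FPKM in control mammary glands, and 4891 ± 882 FPKM in heat and 4964 ± 767 FPKM in control hypothalami. Each of these differences was smaller than the SD of either group.

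Library number separated the hypothalamus sums more widely than heat did. Libraries 1 to 3 had 21101 to 24180.3 FPKM of mitochondrially encoded members in heat and 24069 to 25296 FPKM in control, and libraries 4 to 8 had 11964 to 14927 FPKM in heat and 11549 to 15143 FPKM in control. The nuclear sums of libraries 1 to 3 were 5673 to 6154 FPKM in heat and 5750.2 to 5995 FPKM in control, and those of libraries 4 to 8 were 3840.4 to 4517 FPKM in heat and 4254 to 4683 FPKM in control. Both genomes thus stood higher in the first set under either treatment. The ratio of the mitochondrial to the nuclear sum, which does not depend on scaling between libraries, was 3.69 to 4.08 in heat and 4.19 to 4.29 in control for libraries 1 to 3, and 2.82 to 3.402 in heat and 2.72 to 3.38 in control for libraries 4 to 8. In mammary gland this ratio averaged 2.198 ± 0.278 in heat and 2.47 ± 0.196 in control, and in pituitary 2.39 ± 0.137 in heat and 2.504 ± 0.191 in control (SD, n = 8 each), with overlapping ranges in both tissues.

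**Figure D2:**
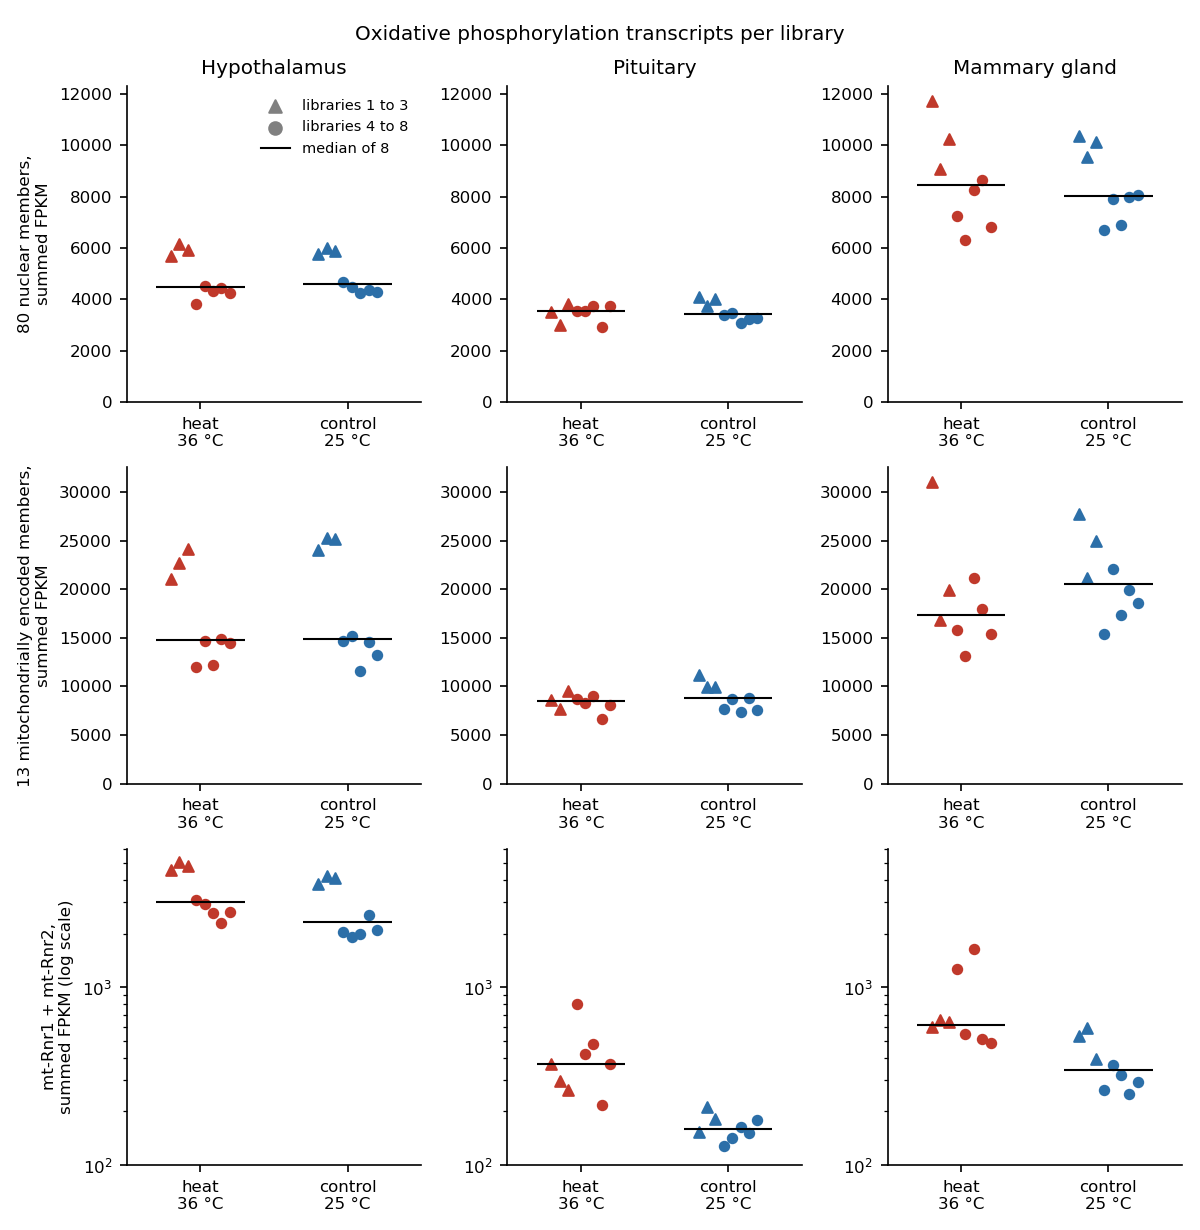
Summed FPKM (vertical axes) of the 80 nuclear members, the 13 mitochondrially encoded members and the 2 mitochondrial ribosomal RNAs, the last on a log scale, for each library by tissue, with heat left of control. Triangles are libraries 1 to 3, circles libraries 4 to 8 and lines medians of 8. The member sums overlap between heat and control in every tissue, while the ribosomal RNA sums of pituitary do not, at 217 to 807 FPKM in heat and 128 to 211 FPKM in control.

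A term for libraries 1 to 3 against 4 to 8 was one of the alternatives, and it brought single members past the threshold. With it limma called 3.48% of all genes in hypothalamus, 12.2% in pituitary and 7.28% in mammary gland, and of the members 0, 4 and 1. In pituitary these were Ndufs1 and mt-Nd3, lower in heat, and Cox7a1 and Ndufb2, higher in heat, and in mammary gland mt-Nd5, lower in heat. The members' shares lay below those of all genes in each tissue.

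Complex I, the NADH dehydrogenase, had 34 of its 35 nuclear members tested in each tissue, with median changes of -0.01 in hypothalamus, 0.0015 in pituitary and 0.04 in mammary gland. Ndufs1, which carries iron-sulphur clusters of the electron path, had in pituitary lowest, median and highest values of 3.73, 5.16 and 6.403 FPKM in heat pituitaries, against 5.66, 6.33 and 7.07 FPKM in control pituitaries. All but the top 2 heat libraries were below the control range, and the change was -0.25 (SE 0.0858, adjusted p = 0.132, with the library-set term 0.0186, limma). Its mammary values were 7.72, 9.81 and 11.6 FPKM in heat mammary glands, against 9.48, 11.3 and 11.8 FPKM in control mammary glands, with wide overlap (change -0.16, SE 0.0734, adjusted p = 0.218, limma). Ndufb2, an accessory subunit, had 2.04, 2.28 and 2.82 FPKM in heat pituitaries, against 1.602, 1.99 and 2.25 FPKM in control pituitaries. Its ranges overlapped in the middle, and the change was 0.21 (SE 0.0669, adjusted p = 0.106, with the library-set term 0.0476, limma). Ndufs3, a core subunit, was listed at 0.08 FPKM or less in every library, and near-identical copy Gm12251 holds 75.7% of its transcript, so its level cannot be read here.

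Complex II, succinate dehydrogenase, has no mitochondrially encoded subunit. Its 4 genes had estimates of -0.15 to -0.04 in pituitary, all negative, and of -0.06 to -0.01 in hypothalamus and -0.12 to 0.08 in mammary gland. Sdhd, a membrane anchor, had 20.9, 27.6 and 33.2 FPKM in heat pituitaries, against 27.9, 31.97 and 33.3 FPKM in control pituitaries (change -0.15, SE 0.0885, adjusted p = 0.419, limma). In mammary gland Sdhd had 72.2, 85.7 and 109.8 FPKM in heat mammary glands, against 78.4, 94.4 and 101 FPKM in control mammary glands (change -0.12, adjusted p = 0.399, limma), and in hypothalamus 31.7, 39.02 and 54.6 FPKM in heat hypothalami, against 38.7, 42.8 and 48.1 FPKM in control hypothalami. Heat and control libraries overlapped in each tissue. Sdha, the flavoprotein, Sdhb, the iron-sulphur subunit, and Sdhc, the other anchor, had changes of -0.14, -0.10 and -0.04 in pituitary, with adjusted p of 0.644, 0.613 and 0.844 (limma).

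Complex III, the cytochrome bc1 complex, had changes between -0.16 and 0.07 over the 3 tissues. Uqcrfs1, the Rieske iron-sulphur protein, had 29.01, 38.02 and 45.3 FPKM in heat pituitaries, against 38.3, 42.02 and 47.7 FPKM in control pituitaries, a change of -0.16 (SE 0.0877, adjusted p = 0.378, limma). In mammary gland it had 86.2, 113 and 133 FPKM in heat mammary glands, against 85.4, 108 and 121 FPKM in control mammary glands, with heat and control nearly alike in range. Uqcrb, an accessory subunit, had 45.5, 58.9 and 87.2 FPKM in heat hypothalami, against 49.96, 59.1 and 95.5 FPKM in control hypothalami, and its reads could be split, since Gm2962 repeats 62.8% of its transcript. Uqcrc1, a core subunit, was low, at 1.36 to 3.88 FPKM in heat and 1.44 to 2.74 FPKM in control hypothalami.

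Complex IV, cytochrome c oxidase, has several subunits with a second gene used mainly in heart and muscle or in testis. Cox7a1, the heart and muscle form of subunit 7a, had the smallest adjusted p among the heat changes of members. In pituitary its lowest, median and highest values were 1.79, 3.05 and 4.04 FPKM in heat pituitaries, against 1.81, 2.004 and 2.33 FPKM in control pituitaries. All but the lowest 2 heat libraries were above the whole control range, and the change was 0.40 (SE 0.111, adjusted p = 0.057, with the library-set term 0.0207, limma). Leaving out 1 library at a time gave adjusted p of 0.0136 to 0.114, under 0.05 in 2 of 16 fits, and a covariate for the lobe markers gave 0.37 (adjusted p = 0.0824, limma). The 8 skeletal muscle markers summed to 1.34 to 3.11 FPKM in heat and 1.600 to 2.52 FPKM in control pituitaries, with 4 of 8 in heat and 7 of 8 in control above 0 in every library. The change of Cox7a1 was -0.0047 in hypothalamus and 0.01 in mammary gland, but the difference of its pituitary from its hypothalamic change, 0.41 (SE 0.251, adjusted p = 1, limma), did not pass. Cox6b2, the testis form of subunit 6b, had 2.67, 4.21 and 7.51 FPKM in heat pituitaries, against 3.07, 3.23 and 3.39 FPKM in control pituitaries, so that the heat libraries were far more spread (change 0.33, adjusted p = 0.217, limma). Cox7b, from the X chromosome, had 122, 163 and 281 FPKM in heat mammary glands, against 119.5, 203 and 235 FPKM in control mammary glands (change -0.15, adjusted p = 0.664, limma), and 45.4, 61.6 and 97.2 FPKM in heat hypothalami, against 57.3, 91.2 and 101 FPKM in control hypothalami (-0.20, adjusted p = 0.974, limma).

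Complex V, ATP synthase, had changes of -0.16 to 0.25. Atp5g2, one of the genes for subunit c of the rotor, had in mammary gland 33.9, 42.00 and 51.3 FPKM in heat mammary glands, against 33.2, 34.8 and 41.2 FPKM in control mammary glands. The heat libraries reached higher while the low ends met, and the change was 0.23 (SE 0.0783, adjusted p = 0.105, and 0.0623 to 0.162 with 1 library left out, limma). In hypothalamus and pituitary Atp5g2 had changes of -0.02 and 0.08. Atp5g1, another subunit c gene, had 15.95, 21.3 and 24.1 FPKM in heat pituitaries, against 18.99, 22.6 and 27.7 FPKM in control pituitaries (change -0.16, adjusted p = 0.465, limma). Atp5o, part of the stalk, had 40.1, 45.02 and 63.9 FPKM in heat hypothalami, against 44.8, 50.3 and 65.8 FPKM in control hypothalami (change -0.12, adjusted p = 0.999, limma), and 47.9% of its exon bases overlap other genes on either strand. Atpif1, the inhibitor that keeps ATP synthase from running backwards and whose symbol the patterns do not take in, had changes of -0.06, -0.06 and -0.03 in hypothalamus, pituitary and mammary gland without passing.

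To see whether heat changes differed between tissues, they were contrasted in a fit of all 48 libraries. limma called 0 of 90 members in each contrast, with 1 at an unadjusted p under 0.05 for mammary gland minus pituitary, 1 for mammary gland minus hypothalamus and 0 for pituitary minus hypothalamus, beside 14.1%, 12.2% and 4.87% of all genes at that level and 2.23%, 1.53% and 0.155% of all genes called. That fit took no account of library number, which went with shared deviations between tissues in most pairs of libraries. With library number as a replicate block, and with a block within each treatment that was added after the data were seen, limma called more of all genes and again 0 of 90 members in each contrast. The smallest p belonged to Cox6b2 for mammary gland minus pituitary, at -0.57 (SE 0.211, adjusted p = 0.165, limma), and to Atp5g2 for mammary gland minus hypothalamus, at 0.25 (SE 0.102, adjusted p = 0.256, limma). Within mammary gland Cox6b2 was below the level filter, and 3 of its fragments equal 0.291 to 0.542 FPKM there. Its contrasts with mammary gland thus rest partly on values near the floor. The next smallest were Uqcrfs1 and Ndufa4 for mammary gland minus pituitary, at 0.22 and 0.39, and Cox6b2 and Atp5b, the catalytic beta subunit of ATP synthase, for mammary gland minus hypothalamus, at -0.40 and 0.13. For pituitary minus hypothalamus they were Ndufs1, mt-Atp6 and Cox7a1, at -0.22, -0.60 and 0.41. With the library-set term Ndufa4, a complex IV subunit once assigned to complex I, passed for mammary gland minus pituitary at 0.39 (adjusted p = 0.0394, limma).

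The 13 mitochondrially encoded genes were tested in every tissue. Those of complex I include the proton-pumping membrane core. mt-Nd1 had 2948, 3929 and 6028 FPKM in heat mammary glands, against 3855, 4769 and 6349 FPKM in control mammary glands (change -0.28, SE 0.141, adjusted p = 0.257, limma), and 967, 1229 and 1470.3 FPKM in heat pituitaries, against 1161, 1396 and 1924 FPKM in control pituitaries (change -0.22, adjusted p = 0.37, limma). mt-Nd5 had 566, 673 and 1200.1 FPKM in heat mammary glands, against 711, 926 and 1279 FPKM in control mammary glands. All but the highest heat library were below the control median, and the change was -0.37 (SE 0.153, adjusted p = 0.169, with the library-set term 0.033, and 0.0417 to 0.278 with 1 library left out, limma). mt-Nd3 had 4.41, 7.67 and 10.7 FPKM in heat pituitaries, against 8.42, 10.8 and 15.8 FPKM in control pituitaries. Most heat libraries were below the lowest control library, and the change was -0.49 (SE 0.156, adjusted p = 0.101, with the library-set term 0.0453, and 0.0467 to 0.182 with 1 library left out, limma). mt-Nd6, the one member read from the other strand of the mitochondrial genome, had 409, 484 and 1411 FPKM in heat mammary glands, against 530.03, 762 and 1325 FPKM in control mammary glands, with wide overlap (change -0.40, SE 0.264, adjusted p = 0.398, limma). mt-Nd2 and mt-Nd4 had changes of -0.18 and -0.0045 in pituitary and of -0.25 and -0.14 in mammary gland. mt-Nd4l had changes of -0.37 in pituitary, 0.31 in hypothalamus and 0.16 in mammary gland, and none passed.

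Cytochrome b and the oxidase and ATP synthase subunits had no called change either. mt-Cytb, the cytochrome of complex III, had 1472, 1932 and 2219 FPKM in heat pituitaries, against 1616, 1903 and 2398 FPKM in control pituitaries (change 0.01, 95% interval -0.23 to 0.24). mt-Co1, the catalytic oxidase subunit, had 4425, 6040.5 and 10765 FPKM in heat mammary glands, against 5437, 6670.2 and 8837 FPKM in control mammary glands (change -0.03, 95% interval -0.37 to 0.30). In pituitary its change was 0.04, with an interval of -0.15 to 0.23. mt-Co2, the copper subunit that takes electrons from cytochrome c, mt-Co3 and mt-Atp6, the proton channel of ATP synthase, had changes of -0.27, -0.56 and -0.36 in pituitary, with unadjusted p of 0.295, 0.126 and 0.0479 and adjusted p of 0.642, 0.452 and 0.294 (limma). mt-Atp8, which shares bases with mt-Atp6, had a change of 0.14 there.

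Levels of several mitochondrial genes are uncertain because the nuclear genome holds near-identical copies. Such copies cover 99.6% of mt-Co2 (Gm28661), 99.6% of mt-Atp6 (Gm10925), 99.9% of mt-Co3 (Gm28437), 99.1% of mt-Nd3 (Gm28438) and 98.99% of mt-Nd4l (Gm10222), along with 63.6% of mt-Nd4 and 31.3% of mt-Co1, at 98% identity or more over at least 100 bases. The 5 that are almost wholly covered were the lowest apart from mt-Atp8: in control pituitaries they averaged 11.3 FPKM for mt-Nd3 to 69.2 FPKM for mt-Co2, against 638 FPKM for mt-Nd6 and 2603 FPKM for mt-Co1. mt-Nd1, mt-Nd2, mt-Nd5, mt-Nd6 and mt-Cytb had no such copy, and these 5 summed to 10514 ± 3118 FPKM in heat and 12368 ± 2753 FPKM in control mammary glands, 4776 ± 649 FPKM in heat and 5336 ± 1091 FPKM in control pituitaries, and 10001 ± 3428 FPKM in heat and 10717 ± 4036 FPKM in control hypothalami (SD, n = 8 each). These sums differed by less than the SD of either group too.

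**Figure D3:**
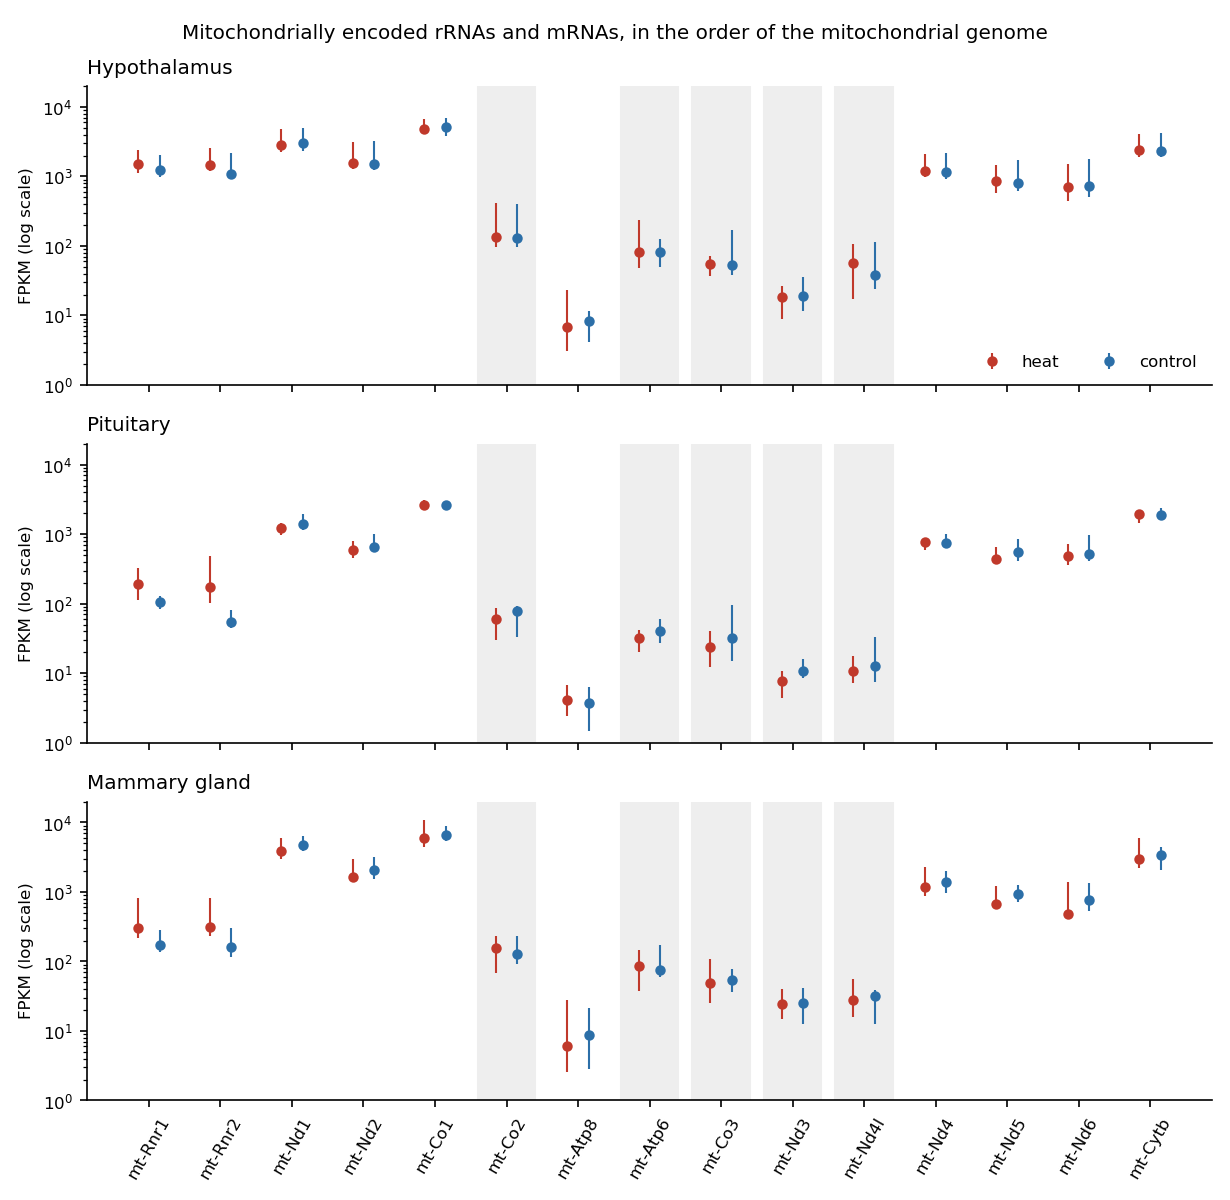
FPKM (vertical axis, log scale) of the 2 ribosomal RNAs and 13 mRNAs of the mitochondrial genome, in genome order along the horizontal axis, for heat and control in each tissue. Points are medians and bars run from the lowest to the highest of 8 libraries, and grey bands mark genes that near-identical nuclear copies cover almost wholly. The mRNAs overlap between heat and control, and mt-Rnr2 of pituitary lies apart, at 103 to 479 FPKM in heat and 44.3 to 81.7 FPKM in control.

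The mitochondrial ribosomal RNAs, which are not members and were taken up after their values had been seen, did change. mt-Rnr2, the large-subunit RNA, had lowest, median and highest values of 103, 173 and 479 FPKM in heat pituitaries, against 44.3, 54.8 and 81.7 FPKM in control pituitaries. Every heat library was above every control library, and the change was 1.68 (SE 0.251, adjusted p = 0.00115, limma), or 1.59 (adjusted p = 0.00199) with a covariate for the lobe markers. mt-Rnr1, the small-subunit RNA, had 113, 194 and 328 FPKM in heat pituitaries, against 83.4, 104 and 129.6 FPKM in control pituitaries, a rise of 0.86 (SE 0.169, adjusted p = 0.00852, limma). Of 10 mitochondrial transfer RNAs tested in pituitary, mt-Ty rose by 1.08 (adjusted p = 0.0281, limma) and the other 9 did not pass.

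In mammary gland mt-Rnr2 had 233, 311 and 819 FPKM in heat mammary glands, against 115, 160.3 and 304 FPKM in control mammary glands, a rise of 1.14 (SE 0.290, adjusted p = 0.0305, limma), and mt-Rnr1 had 221, 299 and 809 FPKM in heat mammary glands, against 136, 175 and 287 FPKM in control mammary glands (0.85, adjusted p = 0.0563, limma). The mammary call was lost in 6 of 16 fits without 1 library (adjusted p 0.0236 to 0.0607) and with a covariate for the lymphocyte markers (0.96, adjusted p = 0.119, limma). In hypothalamus mt-Rnr2 had 1184, 1483 and 2603 FPKM in heat hypothalami, against 912, 1096 and 2183 FPKM in control hypothalami (0.38, adjusted p = 0.839, with the library-set term 0.00775, limma). Within libraries 1 to 3 it had 2412 to 2603 FPKM in heat and 1959 to 2183 FPKM in control hypothalami, and within libraries 4 to 8 1184 to 1517 FPKM in heat and 912 to 1205 FPKM in control.

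Relative to the 13 mitochondrial mRNAs of the same library, the 2 ribosomal RNAs summed to 0.0481 ± 0.0202 in heat and 0.0186 ± 0.00342 in control pituitaries, 0.0435 ± 0.0225 in heat and 0.0179 ± 0.00453 in control mammary glands, and 0.205 ± 0.0303 in heat and 0.157 ± 0.0166 in control hypothalami (SD, n = 8 each). The mean ratio was higher in heat than in control in each tissue, with overlap in mammary gland and hypothalamus and none in pituitary, and was not tested as such. The difference of the heat change of mt-Rnr2 between pituitary and hypothalamus was 1.31 (SE 0.387, adjusted p = 0.302, limma) and did not pass. How ribosomal RNA was removed and how intact the RNA was are not given in the sources used here, and their part in this result was not tested.

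Other genes of mitochondria were read by lists of pathway members. Of all genes tested, 0.681% were called in hypothalamus, 3.79% in pituitary and 5.31% in mammary gland, and the counts called in these lists stand beside those shares. Among 20 genes of protein quality control, Hspe1 and Hspd1, the paired chaperonins of the mitochondrial matrix, rose. Hspe1 had 47.4, 69.7 and 166 FPKM in heat pituitaries, against 33.3, 39.8 and 49.4 FPKM in control pituitaries (change 0.98, SE 0.217, adjusted p = 0.0178, limma), and 44.7, 89.2 and 191 FPKM in heat mammary glands, against 26.4, 43.5 and 55.6 FPKM in control mammary glands (1.21, SE 0.239, adjusted p = 0.00866, limma). In hypothalamus it had 49.5, 54.5 and 64.6 FPKM in heat hypothalami, against 30.97, 38.3 and 53.5 FPKM in control hypothalami (0.53, adjusted p = 0.0238, lost in 6 of 16 fits without 1 library and in the fit of all 48 libraries, limma). In each tissue the median of the heat libraries was above the whole control range. Hspd1 rose by 0.85 in pituitary (adjusted p = 0.0224) and 0.99 in mammary gland (adjusted p = 0.0138) and had a change of 0.35 in hypothalamus (adjusted p = 0.0734, limma). The other 18 did not pass in any tissue, and the medians of the list were 0.01, 0.02 and -0.02 in hypothalamus, pituitary and mammary gland.

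Of 24 genes of the tricarboxylic acid cycle and pyruvate dehydrogenase tested in pituitary, 1 rose and 1 fell, with a list median of -0.06. Pdk4, a kinase that switches pyruvate dehydrogenase off, had 2.59, 4.24 and 6.81 FPKM in heat pituitaries, against 1.51, 2.25 and 2.904 FPKM in control pituitaries (change 0.74, adjusted p = 0.00671, limma). Fh1, fumarase, had 7.202, 8.79 and 9.94 FPKM in heat pituitaries, against 9.61, 10.6 and 12.04 FPKM in control pituitaries (-0.28, adjusted p = 0.0408, lost in 12 of 16 fits without 1 library and with the lobe marker covariate, limma). In hypothalamus 0 of 24 and in mammary gland 0 of 22 passed, with 2 each at an unadjusted p under 0.05. Of 13 genes that copy and transcribe mitochondrial DNA tested in pituitary, Mgme1, a nuclease, rose by 0.50 (adjusted p = 0.0157, limma), while Tfam, which packs and transcribes that DNA, had changes of 0.03, -0.06 and -0.12 in hypothalamus, pituitary and mammary gland and did not pass. When FPKM were scaled to the library sum, the pituitary calls of Hspd1, Mgme1 and Pdk4 were lost. Of 18 RNA handling genes, Supv3l1, the helicase of the mitochondrial RNA-degrading complex, fell by 0.21 in pituitary (adjusted p = 0.0355, lost in 11 of 16 fits without 1 library) and by 0.40 in mammary gland (adjusted p = 0.0222, limma).

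In mammary gland 2 of 13 genes that control mitochondrial biogenesis rose. Sirt1, a deacetylase, had 3.45, 4.87 and 5.59 FPKM in heat mammary glands, against 2.48, 2.78 and 3.66 FPKM in control mammary glands (change 0.56, adjusted p = 0.00215, limma), and Yy1, a transcription factor, rose by 0.30 (adjusted p = 0.0352, lost in 9 of 16 fits without 1 library, limma). Ppargc1a, the biogenesis coactivator, was below the level filter in pituitary and mammary gland and had a change of 0.07 in hypothalamus. Of 42 assembly factors 10 had a positive and 32 a negative estimate in mammary gland, with a median of -0.11, against -0.0096 for all genes tested. The calls were 1 in each direction, a share near that of all genes. Sco1, which delivers copper to the oxidase, fell by 0.42 (adjusted p = 0.0258, lost in 6 of 16) and Sdhaf2, which attaches the flavin to Sdha, rose by 0.28 (adjusted p = 0.0352, lost in 10 of 16, limma). Mrpl19 fell by 0.26, 1 of 76 mitochondrial ribosomal protein genes (adjusted p = 0.0359, lost in 11 of 16, limma). The mammary calls of Hspd1, Supv3l1, Yy1, Sco1, Sdhaf2 and Mrpl19 were also lost with a covariate for the lymphocyte markers, and those of Mrpl19, Sdhaf2, Supv3l1 and Yy1 when FPKM were scaled to the library sum. Without the 5 libraries rich in lymphocyte markers all 9 mammary calls named here, Hspe1, Sirt1 and mt-Rnr2 among them, were lost, with adjusted p of 0.143 to 0.488 (limma), Hspe1 at 0.82 and mt-Rnr2 at 0.83, and the mt-Nd5 change was then -0.15. That fit had fewer libraries and called 47 of all genes, against 668 in the main fit and 293 with the lymphocyte covariate. Losing a call there is therefore not particular to these genes.

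The remaining lists held 0 genes called by limma in any tissue. These were the 8 oxidative phosphorylation genes outside the symbol patterns, carriers and uncoupling proteins, fission, fusion and mitophagy, glycolysis and the cytosolic ribosomal proteins, with at most 3 members of a list at an unadjusted p under 0.05. Of 80 cytosolic ribosomal protein genes 72 had a positive estimate in mammary gland, with a median of 0.13, against -0.0096 for all genes tested. Only 2 of the 80 had an unadjusted p under 0.05 (limma), beside 21.5% of all genes. The share of positive estimates over all genes is not given here.

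Promoters were read because nuclear subunit genes are known to share binding sites for the factors NRF1 and GABPA, and chaperonin genes to carry heat shock elements. RefSeq (GRCm38.p6) gave the bases before the start for 65 of the 80 nuclear members, and 250 of them were searched on both strands. The NRF1 letters GCATGCGC, which can overlap themselves on opposite strands, were in 8 of 65 members (12.3%) and in 2.56% of 27025 genes. The GABPA letters CCGGAAG were in 12 members (18.5%) and in 7.83% of genes. The YY1 letters AAGATGGC and the ESRRA letters TCAAGGTCA were each in 1 member (1.54%), against 1.83% and 0.422% of genes. A heat shock element, read as GAA, TTC and GAA with 2 free bases between each, was in 0 of 65 members and in 0.514% of genes. A match describes letters and not a bound site. The 27025 genes were not limited to protein-coding ones, and G and C made up a median of 56% of member promoters and 52.4% of all promoters. The shares are thus not matched for gene type or base content. The promoters of Atp5g2, Cox6a1 and Sdhd are shown for members with NRF1 or GABPA letters, those of Cox7a1 and Ndufb2 for pituitary members near the threshold that hold none of the motifs, and that of Hspe1 for a gene that rose in all 3 tissues. Capitals mark motif letters, with overlapping matches run together, and each sequence reads 5′ to 3′ on the gene's strand and ends just before the start.
Atp5g2: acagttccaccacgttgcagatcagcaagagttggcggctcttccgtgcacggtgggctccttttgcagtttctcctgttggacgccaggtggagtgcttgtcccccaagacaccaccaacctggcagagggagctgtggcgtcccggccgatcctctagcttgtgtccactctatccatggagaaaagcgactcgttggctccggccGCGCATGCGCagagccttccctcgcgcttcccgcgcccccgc
Cox6a1: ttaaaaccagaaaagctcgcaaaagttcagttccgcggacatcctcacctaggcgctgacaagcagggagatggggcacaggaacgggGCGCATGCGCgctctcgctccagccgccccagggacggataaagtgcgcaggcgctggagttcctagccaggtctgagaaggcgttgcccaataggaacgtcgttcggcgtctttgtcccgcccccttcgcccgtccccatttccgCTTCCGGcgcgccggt
Sdhd: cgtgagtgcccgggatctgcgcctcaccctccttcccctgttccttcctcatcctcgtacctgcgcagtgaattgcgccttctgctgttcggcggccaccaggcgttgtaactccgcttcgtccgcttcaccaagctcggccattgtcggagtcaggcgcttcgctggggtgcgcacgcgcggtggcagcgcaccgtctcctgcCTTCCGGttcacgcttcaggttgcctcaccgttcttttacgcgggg
Cox7a1: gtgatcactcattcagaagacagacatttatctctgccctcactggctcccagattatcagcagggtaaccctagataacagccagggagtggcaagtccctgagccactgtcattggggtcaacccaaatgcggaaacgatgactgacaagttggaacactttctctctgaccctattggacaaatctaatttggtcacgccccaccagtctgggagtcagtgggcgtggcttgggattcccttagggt
Ndufb2: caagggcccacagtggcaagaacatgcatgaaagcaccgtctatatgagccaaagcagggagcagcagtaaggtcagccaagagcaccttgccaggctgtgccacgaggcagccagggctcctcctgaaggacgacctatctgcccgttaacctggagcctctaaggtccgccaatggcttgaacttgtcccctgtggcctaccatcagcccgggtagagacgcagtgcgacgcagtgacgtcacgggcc
Hspe1: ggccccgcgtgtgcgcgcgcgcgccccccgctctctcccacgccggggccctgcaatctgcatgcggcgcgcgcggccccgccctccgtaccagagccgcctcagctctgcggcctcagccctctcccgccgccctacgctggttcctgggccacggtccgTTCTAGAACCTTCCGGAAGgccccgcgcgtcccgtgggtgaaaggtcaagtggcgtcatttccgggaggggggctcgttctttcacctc
They lie at chr15:102671048-102671297 (minus strand), chr5:115348959-115349208 (minus strand), chr9:50603850-50604099 (minus strand), chr7:30183921-30184170 (plus strand), chr6:39592315-39592564 (plus strand) and chr1:55087898-55088147 (plus strand) of GRCm38.p6, in the order shown, while the expression files carry no coordinates. The capitals of Atp5g2 are NRF1 letters overlapping on both strands, those of Cox6a1 the same and, nearer the start, GABPA letters, those of Sdhd GABPA letters, and those of Hspe1 heat shock element letters running into GABPA letters.

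Levels across tissues were compared in the 24 control libraries, and here the scaling between libraries set the direction for mammary gland. All FPKM, milk proteins included, summed to 451222 to 707642 in control mammary glands, 186992 to 222653 in control pituitaries and 203280 to 229127 in control hypothalami. Under median-ratio scaling limma called 81 of 90 members higher and 3 lower in mammary gland than in pituitary, beside 37.2% higher and 43.5% lower of all genes. The FPKM as deposited, whose median ratios were already equal, gave the same 81 and 3. With FPKM scaled to the library sum it called 8 members higher and 52 lower (all genes 9.65% higher and 81.1% lower), and under quantile normalization 49 higher and 16 lower (all genes 36.6% higher and 42.8% lower). Against hypothalamus 56 members were higher and 8 lower in mammary gland, beside 38.2% higher and 45.7% lower of all genes, but 2 higher and 78 lower under library-sum scaling (all genes 13.1% higher and 76.5% lower) and 38 higher and 29 lower under quantile normalization (all genes 43.8% higher and 39.5% lower). Library-sum scaling put the median of all genes itself at -1.15 for mammary gland minus pituitary and -1.14 for mammary gland minus hypothalamus, against -0.07 and -0.11 under median-ratio scaling.

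Pituitary against hypothalamus did not turn. Here 5 members were higher and 71 lower in pituitary, beside 32.3% higher and 40.8% lower of all genes, 6 and 69 under library-sum scaling (all genes 36.8% higher and 37.9% lower), and 9 and 50 under quantile normalization (all genes 40.5% higher and 33.4% lower). The share of members lower in pituitary was above that of all genes under each scaling.

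**Figure D4:**
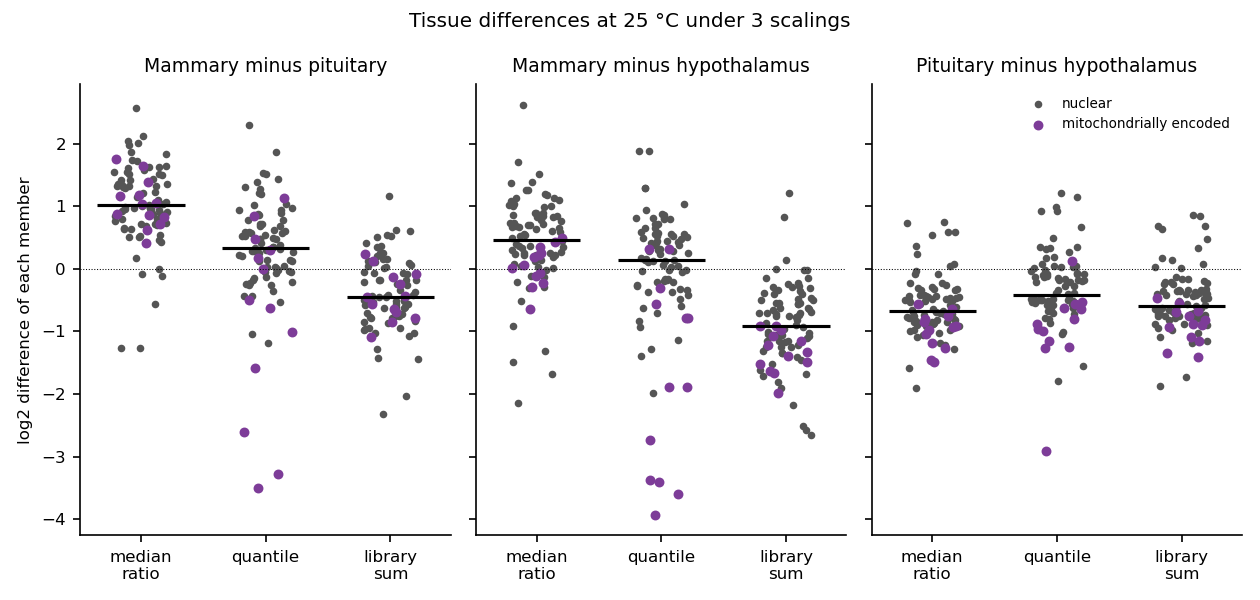
Log2 difference between control tissues of each member tested (vertical axis) under median-ratio, quantile and library-sum scaling (horizontal axis), for mammary gland minus pituitary, mammary gland minus hypothalamus and pituitary minus hypothalamus, with black lines at the medians. The mammary differences turn with the scaling, from 81 to 8 members called higher against pituitary and from 56 to 2 against hypothalamus, whereas pituitary minus hypothalamus stays mostly below zero.

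In pituitary all 13 mitochondrially encoded members were lower than in hypothalamus, with differences of -1.49 for mt-Nd4l to -0.56 for mt-Cytb, except that mt-Cytb stood at 0.12 under quantile normalization (adjusted p = 0.238, limma). Of the 77 nuclear members tested 58 were lower and 5 higher in pituitary. Cox5a, an oxidase subunit, had the largest difference, at 4.53 to 5.75 FPKM in control pituitaries and 17.4 to 25.7 FPKM in control hypothalami (-1.91, adjusted p = 4.79e-17, limma). Ndufv3, of the NADH-binding module, and Atp5g1 were higher in pituitary, by 0.74 and 0.59 (adjusted p = 3.15e-07 and 1.05e-08, limma), and so was Ndufa1, of the complex I membrane arm, by 0.58 (adjusted p = 0.0366). Cox6a2 was lower in pituitary, with a difference of -1.59. Sdha, Sdhb, Sdhc and Sdhd were all lower in pituitary, with differences of -0.99, -0.89, -0.73 and -0.45.

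Some members kept their direction in mammary gland under all 3 scalings. Ndufa1, an X-linked subunit of the complex I membrane arm, had 296 to 1102 FPKM in control mammary glands, 109 to 234 FPKM in control pituitaries and 69.7 to 150.4 FPKM in control hypothalami. It was higher in mammary gland by 2.04 against pituitary and 2.62 against hypothalamus (adjusted p = 4.09e-08 and 3.39e-10), and under library-sum scaling by 0.53 and 1.21 (limma). Cox5a and Cox7b were higher in mammary gland than in pituitary by 2.57 and 2.12, and under library-sum scaling by 1.17 and 0.63. Cox8b, a muscle form of subunit 8, was higher in mammary gland than in hypothalamus by 1.71, with 1.44 to 10.4 FPKM in control mammary glands. The 10.4 FPKM came from control library 1, and the other 7 had 1.44 to 4.87 FPKM. A count of 3 fragments of Cox8b equals 0.896 to 1.67 FPKM in mammary libraries, so its low values there are near the floor. Ndufv3 was higher there by 1.52, but under library-sum scaling its difference of 0.15 did not pass (adjusted p = 0.0584, limma).

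Cox6a2, the heart and muscle form of subunit 6a, was lower in mammary gland, at 0 to 0.214 FPKM, than in pituitary, at 0.294 to 1.56 FPKM, and in hypothalamus, at 1.72 to 7.36 FPKM, with differences of -0.56 and -2.15 (adjusted p = 0.00621 and 3.39e-11, limma). A count of 3 fragments of Cox6a2 equals 0.474 to 0.882 FPKM in mammary libraries, and 19 of the 48 libraries held no more than that count. The difference from pituitary thus rests on values near the floor. In the heat libraries the difference from pituitary, -0.28, did not pass. Atp5s, a coupling factor of ATP synthase, was lower in mammary gland than in pituitary and hypothalamus, with differences of -1.26 and -1.68, and so was Cox6b2, with -1.27 and -1.50. For Cox6b2 3 fragments equal 0.291 to 0.542 FPKM in mammary libraries, and 7 of the 48 libraries held no more than that count. Of the mitochondrially encoded members 11 of 13 were higher in mammary gland than in pituitary and 2 of 13 higher than in hypothalamus under median-ratio scaling, but under library-sum scaling 0 were higher in mammary gland, with 6 lower than in pituitary and 13 lower than in hypothalamus, and under quantile normalization 2 were higher and 7 lower than in pituitary and 9 lower than in hypothalamus. With library number as a block, which pairs the tissues, 4 more passed between mammary gland and hypothalamus, mt-Cytb at 0.26, mt-Nd3 at 0.43, mt-Nd4l at -0.64 and mt-Nd6 at -0.22 (adjusted p = 0.0192, 0.0319, 0.0358 and 0.032, limma). The block also brought mt-Nd6 past the threshold between mammary gland and pituitary, at 0.42 (adjusted p = 0.000422, limma).

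The balance between genes for the same subunit can be read within a library and does not depend on scaling between libraries. Subunit c of ATP synthase is made from Atp5g1, Atp5g2 and Atp5g3, which encode the same mature protein. Their shares depend on the merged exon lengths that fragments are divided by, 4912, 1675 and 2181 bases. Median fragments over the libraries were 1744 for Atp5g1, 889.5 for Atp5g2 and 1810 for Atp5g3, so the size of a share follows these lengths. Between tissues and treatments the lengths are the same. Atp5g3 gave 61.9 ± 1.85% of their summed FPKM in heat and 64.7 ± 2.78% in control mammary glands, 38.2 ± 3.14% in heat and 39.4 ± 2.98% in control pituitaries, and 64.8 ± 2.35% in heat and 64.7 ± 3.16% in control hypothalami (SD, n = 8 each). Every pituitary library was below every library of the other tissues for this share. Atp5g2 gave 24.8 ± 2.305% in heat and 21.6 ± 2.32% in control mammary glands, 38.5 ± 2.72% in heat and 35.2 ± 2.802% in control pituitaries, and 20.8 ± 1.98% in heat and 20.9 ± 2.199% in control hypothalami, so that heat and control overlapped in each tissue. Gm10175 repeats 16.9% of the Atp5g2 transcript.

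**Figure D5:**
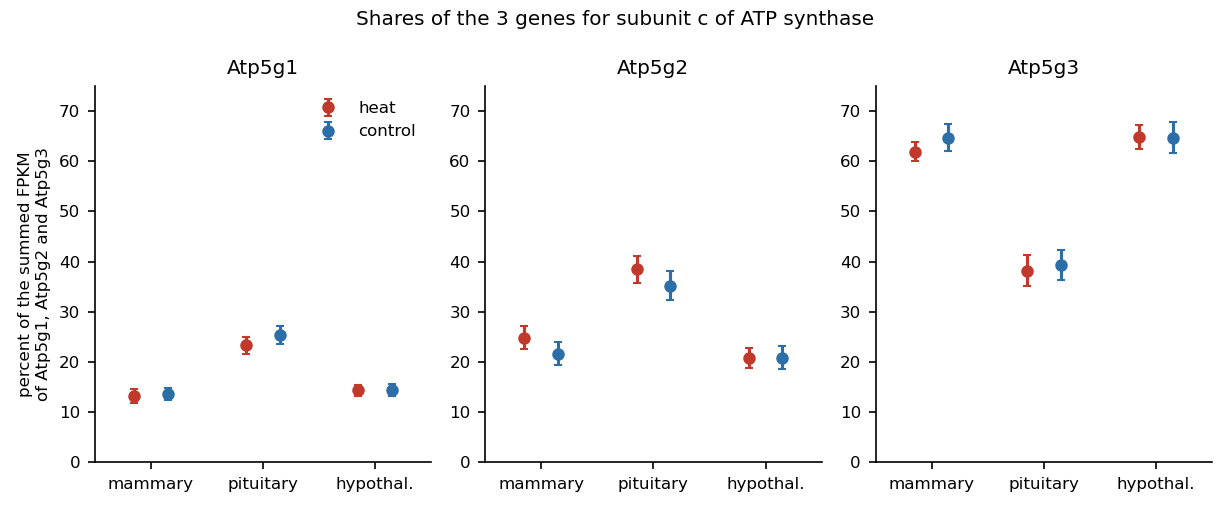
Percent of the summed FPKM of the 3 subunit c genes given by each gene (vertical axis), as mean ± SD of 8 libraries, for mammary gland, pituitary and hypothalamus with heat left of control. Atp5g3 gives 38.2% in heat and 39.4% in control pituitaries, against 61.9% in heat and 64.7% in control mammary glands.

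Oxidase subunits drew nearly all of their RNA from the broadly used gene. Cox7a1 gave 6.27 ± 1.74% of subunit 7a RNA in heat and 4.12 ± 0.998% in control pituitaries, 6.57 ± 1.42% in heat and 7.07 ± 1.71% in control mammary glands, and 4.79 ± 0.756% in heat and 4.78 ± 1.45% in control hypothalami, the rest coming from Cox7a2. Cox6b2 gave 5.300 ± 1.801% of subunit 6b RNA in heat and 3.81 ± 0.728% in control pituitaries, with Cox6b1 giving the remainder. Cox4i2, the lung and low-oxygen form of subunit 4, gave 1.703 ± 0.475% in heat and 1.38 ± 0.523% in control pituitaries beside Cox4i1. In control libraries Cox8b reached at most 1.34% beside Cox8a, and Cox6a2 at most 1.44% beside Cox6a1. Cox7b2 and Cox8c, also testis forms, were listed at or near 0: Cox7b2 was at 0 in every mammary library and at most 0.665 FPKM elsewhere, and Cox8c was at 0 in every mammary and hypothalamus library and at most 0.162 FPKM in pituitary.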

How the data were processed

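Bulk RNA of hypothalamus, pituitary and mammary gland was sequenced in 48 libraries, 8 heat and 8 control per tissue, grouped by their labels. The deposited values are FPKM per gene, made by the authors with HISAT2 2.0.5 and featureCounts 1.5.0-p3 on mm9, with DESeq2 1.16.1 also named, per the submitters' processing notes. Total RNA was taken with Trizol, per the labels' protocols. The genes' exon lengths fitted GENCODE M21 on GRCm38 rather than mm9, and the files carry no coordinates. Overlaps and near-identical copies were found against that reference. FPKM steps gave whole fragments, within 0.02 of a whole number, for 94.7% to 96.9% of low values, and totals per library from them.

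FPKM were scaled within a tissue by median ratios (factors 0.970 to 1.02), transformed as log2(FPKM + 1) and tested with limma 3.58.1 in R 4.3.3 (trend, two-sided), for genes with a mean of at least 1 FPKM, with Benjamini-Hochberg adjustment over all genes and a threshold of 0.05. Tissue differences used the 24 control libraries, and differences of heat changes all 48. Intervals are 95%. The test was tried on simulated data first. No 2 libraries were identical. Across control tissues every pair of same-numbered libraries correlated above 0.1 in its deviations (0.124 to 0.627) and all 8 correlated best with their own number, so numbers were taken to pair tissues; this rests on the data, since the labels do not tie numbers to dams. Alternatives were other scalings, pseudocounts and level filters, leaving out each library, a replicate block, a term for libraries 1 to 3 against 4 to 8, each of these sets alone, 1 fit of all libraries, array weights, marker covariates and an exact Wilcoxon test. Named genes were the mitochondrially encoded members, those of smallest p per complex (1 of them is not reported here), the isoform genes, complex II and Atpif1, the extremes of each tissue comparison and the called genes of each list; the ribosomal RNAs and mt-Ty were added after their values were seen. The members and lists were chosen with earlier results of these data known. Other steps ran in Python 3.11.15 with scipy 1.17.1, pandas 2.3.3 and numpy 2.4.6, and plots in matplotlib 3.10.9.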

Additional observations from a re-analysis of the deposited data

Results flagged for a closer look

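Values were singled out where 1 library of a group of 8 lay so far from the other 7 that its gap exceeded the critical share of the group's range in Dixon's test. Of 312 groups examined 24 met this, and chance alone marks about 5% of groups.

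Heat mammary library 1 stood apart from the other 7 heat mammary libraries. Its 13 mitochondrially encoded members summed to 30994 FPKM, against 13138 to 21135 FPKM in the other 7, and their share of all FPKM was 4.81%, against 2.84 to 3.49% in the other 7. Among single genes mt-Cytb had 5969.5 FPKM, against 2199 to 3426 FPKM in the other 7. mt-Nd4 had 2294 FPKM, against 879 to 1459.9 FPKM in the other 7, and mt-Nd5 had 1200.1 FPKM, against 566 to 786 FPKM in the other 7. mt-Nd6 had 1411 FPKM, against 409 to 850.2 FPKM in the other 7. Without this library mt-Nd5 had an adjusted p of 0.0417 for its heat change in mammary gland (limma), the lowest of the 16 fits that left out 1 library.

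The mitochondrial ribosomal RNAs stood out in heat pituitary library 4, where both together summed to 807 FPKM, against 217 to 481 FPKM in the other 7, and mt-Rnr2 had 479 FPKM, against 103 to 236 FPKM in the other 7. The next highest heat libraries were still above the control range of the sum. mt-Rnr1 had 809 FPKM in heat mammary library 6, against 221 to 461 FPKM in the other 7 of its group.

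Among genes with near-identical nuclear copies, mt-Co2 had 419.6 FPKM in heat hypothalamus library 2, against 96.5 to 163 FPKM in the other 7 of its group, and 403 FPKM in control hypothalamus library 7, against 95.1 to 225 FPKM in the other 7 of its group. mt-Co3 had 110.2 FPKM in heat mammary library 6, against 25.5 to 62.99 FPKM in the other 7 of its group. mt-Atp6 had 173 FPKM in control mammary library 5, against 60.7 to 98.2 FPKM in the other 7 of its group, and mt-Nd4l had 115 FPKM in control hypothalamus library 4, against 24.2 to 56.9 FPKM in the other 7 of its group.

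Among nuclear members, Sdhd had 109.8 FPKM in heat mammary library 7, against 72.2 to 89.8 FPKM in the other 7 of its group, and 78.4 FPKM in control mammary library 4, against 90.6 to 101 FPKM in the other 7 of its group. Cox6b2 had 8.09 FPKM in heat hypothalamus library 1, against 3.51 to 4.66 FPKM in the other 7 of its group. Cox6a2 had 1.26 FPKM in heat mammary library 8, against 0 to 0.588 FPKM in the other 7 of its group, 0.214 FPKM in control mammary library 7, against 0 in the other 7 of its group, and 1.56 FPKM in control pituitary library 4, against 0.294 to 0.538 FPKM in the other 7 of its group. Cox8b had 10.4 FPKM in control mammary library 1, against 1.44 to 4.87 FPKM in the other 7 of its group, and 2.79 FPKM in control pituitary library 2, against 0.477 to 1.28 FPKM in the other 7 of its group. Cox8c had 0.162 FPKM in control pituitary library 2, against 0 in the other 7 of its group, and at most 2 fragments in any library. Where the other 7 values are all 0, as here and for Cox6a2 in control mammary library 7, any value above 0 is flagged. The 5% does not apply to such groups. Atp5s had 3.77 FPKM in control mammary library 1, against 1.27 to 2.43 FPKM in the other 7 of its group.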

How the results depend on the processing

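Among the heat changes of members and lists, 4697 values kept their side of the threshold or moved by less than the spread under the alternatives run, 48 passed only under an alternative, 139 no longer passed and 3 medians moved further. Of 13284 values of single genes and medians in all comparisons, 721 differed in sign where neither value was called. Where the count of 0 called members altered, the cause was not tested, except that a fit with fewer libraries has less data. In pituitary it was 1 under scaling to the library sum, 3 with the replicate block, 4 with the term for libraries 1 to 3 against 4 to 8, 3 in libraries 4 to 8 alone, 3 with array weights and 1 without control 1 and heat 3, which were left out together. In the same order 484, 1213, 1720, 1392, 1398 and 631 of all genes were called there, against 534 of 14094 in the main fit. In mammary gland it was 1 under quantile normalization, with the replicate block, with the library-set term and in the fit of all 48 libraries. These called 719, 634, 916 and 2042 of all genes, against 668 in the main fit. Hypothalamus stayed at 0. Leaving out 1 library at a time gave 0 to 3 members in pituitary, where the counts above 0 came without heat 2 (1) and heat 3 (3), and 0 to 1 in mammary gland, where heat 1 was left out. For the difference of heat changes between mammary gland and pituitary the library-set term gave 1 in place of 0. The median change of nuclear members in pituitary was -0.20 under library-sum scaling and -0.19 in libraries 1 to 3 alone, and that of mitochondrially encoded members -0.40 under it.

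Replicate numbers of heat and control did not pair the samples: the lowest correlation between same-numbered libraries was 0.0649 in hypothalamus, -0.0205 in pituitary and -0.0992 in mammary gland, and 1 of 8 correlated best with its own number in each, so the replicate block is given only as a count. Across control tissues, where numbers did pair the libraries, the block gave 76 of 90 members called for mammary gland against hypothalamus, 86 against pituitary and 82 for pituitary against hypothalamus, beside 64, 84 and 76 without it. Of all 14786 genes tested 12875, 12556 and 11547 were called with the block, beside 12401, 11937 and 10807 without it. Leaving out 1 library gave 61 to 66, 83 to 85 and 71 to 77. Beyond the members named with the block, it brought Atpif1 past the threshold, at -0.24 for pituitary minus hypothalamus.

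Differences between tissues turned round in 53 cases, all by scaling. For mammary gland minus hypothalamus library-sum scaling gave Cox4i1 -0.90, Cox4i2 -0.20, Cox6a1 -0.23, Cox6b1 -0.66, Cox7a1 -0.011, Cox7a2 -0.63, Cox7b -0.14, Cox8a -0.55, mt-Atp6 -1.33, mt-Atp8 -0.97, mt-Co1 -1.07, mt-Cytb -1.15, mt-Nd1 -0.92, mt-Nd2 -1.22, mt-Nd3 -0.92, mt-Nd4 -1.39, Sdhb -0.77, Sdhc -1.07, Sdhd -0.29, and quantile normalization gave Cox4i1 -0.40, Cox6a1 -0.32, Cox6b1 -0.024, Cox8a -0.38, mt-Co1 -3.93, mt-Cytb -3.37, mt-Nd1 -3.60, mt-Nd2 -3.41, mt-Nd4 -2.73. For mammary gland minus pituitary library-sum scaling gave Cox4i2 -0.45, Cox7a2 -0.062, Cox8a -0.17, mt-Atp6 -0.45, mt-Atp8 -0.076, mt-Co1 -0.13, mt-Co2 -0.44, mt-Co3 -0.85, mt-Cytb -0.69, mt-Nd3 -0.24, mt-Nd4 -0.64, mt-Nd4l -0.57, mt-Nd5 -0.79, mt-Nd6 -1.09, Sdha -1.02, Sdhc -0.42, and quantile normalization gave mt-Co1 -3.28, mt-Cytb -3.50, mt-Nd1 -2.60, mt-Nd2 -0.50, mt-Nd4 -1.59, mt-Nd5 -0.63, mt-Nd6 -1.01, Sdha -0.25. For pituitary minus hypothalamus it was mt-Cytb, at 0.12 under quantile normalization.

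Depth limits low members most: a count of 3 fragments corresponds to 0.105 FPKM at the least and 0.600 FPKM at the most for a transcript of 1 kilobase, and covers counting error only. The exposure time, the dams behind the libraries and the removal of ribosomal RNA are not given in the sources used here.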
